A study of Mus musculus with 6 samples.

Results

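Expression of 10 genes that encode chromatin repressors linked to silencing of the D4Z4 repeat was examined in skeletal muscle of FLExDUX4 and wild-type (WT) mice. They were taken by name (Smchd1, Dnmt1, Dnmt3a, Dnmt3b, Ezh2, Suv39h1, Setdb1, Trim28, Chd4 and Ctcf), and all 10 were found on 1 row each among the 52550 mouse genes of the deposited table. RNA from 3 male FLExDUX4 mice and 3 male WT littermates was sequenced with QuantSeq, which reads the 3′ end of polyadenylated RNA, so that long and short transcripts yield about 1 read each. FLExDUX4 mice are hemizygous for an inverted human DUX4 transgene at the Rosa26 locus, flanked by lox sites and leaky without Cre recombinase. No Cre driver and no inducing drug is named for either group. The labels give quadriceps at 13 weeks of age, whereas the methods give triceps at 2 months. For each gene the table holds raw counts summed over the 3 mice of a genotype. The spread between mice is therefore not part of any value here, and no test was run.

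D4Z4 is a macrosatellite repeat at the end of human chromosome 4q, and each unit carries a copy of the DUX4 reading frame. In healthy muscle the repeat is packed into silent chromatin, with methylated DNA, the repressive histone marks H3K9me3 and H3K27me3, and the proteins that write or read them. Facioscapulohumeral muscular dystrophy (FSHD) follows when this silencing is lost and a functional polyadenylation signal lies distal to the repeat. Silencing is lost either because the repeat is short (type 1) or because a silencing factor such as SMCHD1 or DNMT3B is mutated (type 2). The FLExDUX4 transgene sits at Rosa26 and not in a D4Z4 array, so these mice carry DUX4 outside the repeat on which the 10 proteins are known to act.

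All 10 genes have a RefSeq promoter entry on GRCm38.p6, 16 start sites in all. In the 250 bases before each start, 15 of the 16 windows held more CpG dinucleotides than the median promoter, which has 6 among 32851 windows of this length. The members ranged from 2 to 40 with a median of 22. The windows of 4 genes, with no annotated exon inside, are printed to show this, 5′ to 3′ on the strand of the gene, with each CpG in capitals: those of Smchd1 and Dnmt3b, whose human counterparts are mutated in FSHD type 2, and those of Dnmt3a and Suv39h1, which had the lowest and the highest FLExDUX4 to WT ratio. They are Smchd1 (chr17:71475344-71475593, minus strand, 33 CpG), Dnmt3b (chr2:153649199-153649448, plus strand, 21 CpG), Dnmt3a (chr12:3806730-3806979, plus strand, 38 CpG) and Suv39h1 (chrX:8074761-8075010, minus strand, 11 CpG).
Smchd1: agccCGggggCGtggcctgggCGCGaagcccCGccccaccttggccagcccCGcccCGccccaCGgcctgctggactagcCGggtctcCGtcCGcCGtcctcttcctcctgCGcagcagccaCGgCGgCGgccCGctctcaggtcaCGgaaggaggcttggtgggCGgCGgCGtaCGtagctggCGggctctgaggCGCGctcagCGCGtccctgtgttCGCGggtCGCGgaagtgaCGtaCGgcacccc
Dnmt3b: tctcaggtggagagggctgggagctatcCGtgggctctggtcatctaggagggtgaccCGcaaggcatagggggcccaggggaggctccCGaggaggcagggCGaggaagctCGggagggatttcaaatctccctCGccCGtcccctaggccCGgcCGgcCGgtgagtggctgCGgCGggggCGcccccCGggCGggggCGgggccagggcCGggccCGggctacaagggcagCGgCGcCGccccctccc
Dnmt3a: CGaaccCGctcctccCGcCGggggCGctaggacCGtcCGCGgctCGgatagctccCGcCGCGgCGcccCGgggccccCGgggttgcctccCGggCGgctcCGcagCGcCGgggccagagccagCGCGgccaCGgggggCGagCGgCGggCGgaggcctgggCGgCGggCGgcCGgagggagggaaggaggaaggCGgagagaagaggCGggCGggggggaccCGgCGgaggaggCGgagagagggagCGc
Suv39h1: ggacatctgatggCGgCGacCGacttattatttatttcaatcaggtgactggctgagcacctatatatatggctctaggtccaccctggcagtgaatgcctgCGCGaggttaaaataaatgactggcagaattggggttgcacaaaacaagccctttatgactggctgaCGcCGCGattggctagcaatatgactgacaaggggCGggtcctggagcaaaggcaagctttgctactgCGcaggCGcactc
Searched on both strands, the GC box letters GGGCGG were in 13 of the 16 windows, from 9 of the 10 genes, against 32.7% of all windows. CCAAT was in 6 windows against 33.8% of all, the E-box CACGTG in 1 window, an internal start of Dnmt3a, against 6.02%, and TATAAA in none, against 12.4%. None of these 4 strings contains another, and a match describes the letters only.

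Chd4 and Dnmt3a were the most abundant of the 10 genes, and Dnmt3b and Suv39h1 the least. Levels are given as CPM, the counts of a gene relative to the group total in units of 1e6, scaled by TMM (a factor that equalizes the bulk of genes), with the exact 95% Poisson interval in brackets, which covers counting error alone. As QuantSeq counts transcripts once, levels were compared between genes without a length term. Of the 13396 genes with enough counts to be compared, which include all 10, 93.4% had a lower mean level over both groups than Chd4, 74% a lower level than Smchd1 and 14.6% a lower level than Dnmt3b. In WT mice the order was Dnmt3a, Chd4, Ctcf, Trim28, Smchd1, Setdb1, Ezh2, Dnmt1, and then Suv39h1 and Dnmt3b at equal counts. The intervals of the neighbours Dnmt3a and Chd4, Setdb1 and Ezh2, and Suv39h1 and Dnmt3b overlapped in WT mice, and those of all other neighbours did not. In FLExDUX4 mice Chd4 stood above Dnmt3a without overlap, and the rest of the order was as in WT mice, with overlap between Trim28 and Smchd1, Setdb1 and Ezh2, Dnmt1 and Suv39h1, and Suv39h1 and Dnmt3b. The 10 genes together had 3564 counts in FLExDUX4 mice and 5838 in WT mice, or 274.7 and 314.6 CPM.

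**Figure D1:**
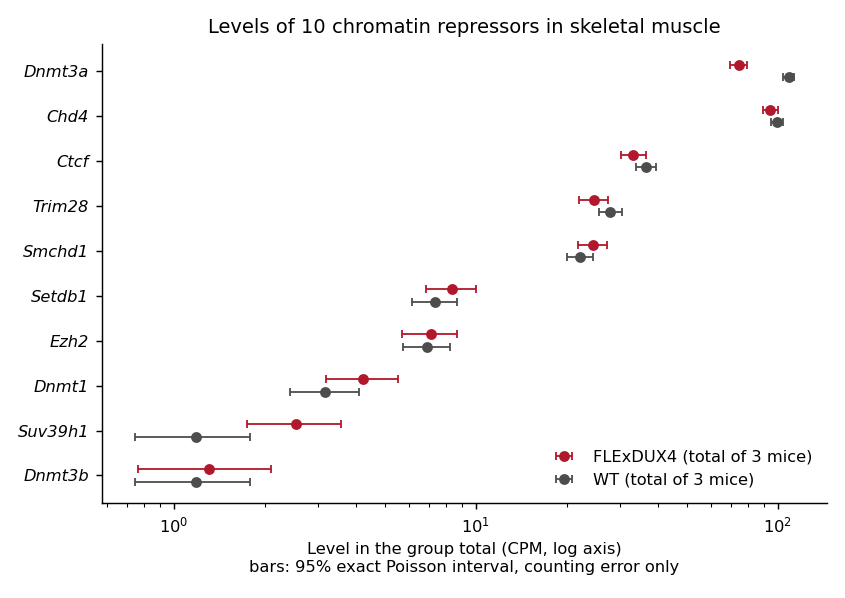
Level of each repressor in the FLExDUX4 (red) and WT (grey) group totals, in CPM on a log axis. Points are totals of 3 mice and bars the exact 95% Poisson interval, so mouse-to-mouse spread is not shown. Dnmt3a, at 74.3 and 108.7 CPM, and Suv39h1, at 2.54 and 1.19 CPM, are the genes whose points lie farthest apart.

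Between genotypes, the intervals of 8 of the 10 repressors held a log2 ratio of 0 on the TMM scale, and this count depends on the scaling. The log2 ratio of FLExDUX4 to WT was above 0 for 6 of the 10 genes, against 49.9% of all genes compared, and the median of the 10 was 0.09, against -0.001 over all genes. The exact 95% counting interval (Clopper-Pearson) lay above 0 for Suv39h1 alone and below 0 for Dnmt3a alone. Over all genes compared, 20.5% had an interval above 0 and 20.6% below it, so the 10 genes had no larger share than this background in either direction. A total summed over 3 mice can be set by 1 of them, and an interval off 0 compares these totals, not the genotypes. The depth was 13110125 counts on genes in FLExDUX4 mice and 18367364 in WT mice. After TMM scaling of these depths, 1 count is worth 0.0771 and 0.0539 CPM. Scaling to the ERCC and SIRV spike-in RNAs in place of TMM moves every log2 ratio by -0.28. The ratio was then above 0 for 2 of the 10 genes, Suv39h1 and Dnmt1, the median was -0.18, and the intervals of 4 genes, Dnmt3a, Trim28, Chd4 and Ctcf, lay below 0. Ratios below are on the TMM scale unless stated.

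**Figure D2:**
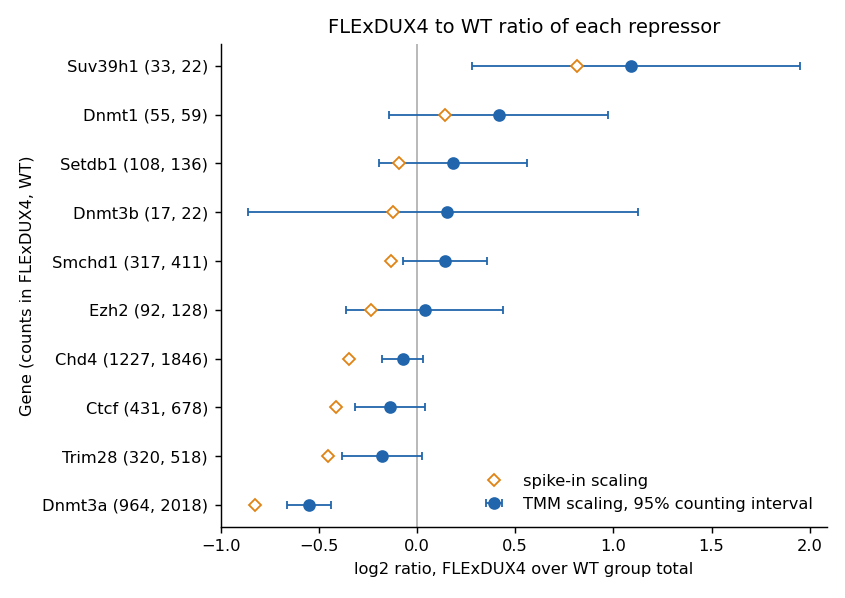
Log2 ratio of the FLExDUX4 to the WT group total for each repressor, with the counts of both totals in brackets. Blue points and bars are the TMM-scaled ratio and its 95% counting interval, and open diamonds the spike-in-scaled ratio. Only Dnmt3a, at -0.55, and Suv39h1, at 1.09, have an interval that does not cross 0 on the TMM scale.

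SMCHD1 is an SMC-like ATPase that compacts silent chromatin on the inactive X chromosome and at D4Z4. Its gene (chromosome 17 of GRCm38, 71344489 to 71475343, minus strand) gave 317 counts for FLExDUX4 and 411 for WT. These are 24.4 CPM (21.8 to 27.3) and 22.2 CPM (20.1 to 24.4), and the intervals overlap. The log2 ratio was 0.14 (interval -0.07 to 0.36), a fold of 1.10 (0.9499 to 1.28), and the spike-ins gave a log2 ratio of -0.13. Lrif1, which encodes a partner of SMCHD1 and HP1 and is also mutated in rare FSHD type 2, had 244 and 338 counts and a ratio of 0.05 (interval -0.20 to 0.29). Neither interval excluded 0.

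Of the DNA methyltransferase genes, Dnmt3a had a lower total in FLExDUX4 mice, and the intervals of Dnmt1 and Dnmt3b held 0. DNMT3A and DNMT3B place new methyl groups and DNMT1 copies them after replication. Dnmt3a (chromosome 12, 3806007 to 3914443) gave 964 counts for FLExDUX4 and 2018 for WT. That is 74.3 CPM (69.7 to 79.1) against 108.7 CPM (104 to 113.6), and the intervals are apart. The log2 ratio was -0.55 (interval -0.66 to -0.44), a fold of 0.684, and -0.83 with spike-in scaling. Dnmt1 (chromosome 9, 20907209 to 20959888) had 55 and 59 counts and a ratio of 0.42 (interval -0.14 to 0.97). Dnmt3b (chromosome 2, 153649450 to 153687730), with 17 and 22 counts, had a ratio of 0.15 (interval -0.86 to 1.12). A level of Dnmt3b that is 2 times higher in FLExDUX4 mice lies within this interval and is not excluded.

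Among the 5466 genes with 300 to 3999 counts over both genotypes, a range that holds Dnmt3a and 4 other repressors, 5.27% had a ratio past 1.5-fold in either direction. None of the 5 repressors did. The middle 90% of these genes lay between -0.44 and 0.48, and Dnmt3a was below that range, with 2.69% of the genes lower still. The other 4 were inside it, from Trim28 at -0.18 to Smchd1 at 0.14. Among the 5907 genes with 30 to 299 counts the same share was 38.4%, and the middle 90% ran from -1.34 to 1.18. All of Dnmt1, Dnmt3b, Ezh2, Suv39h1 and Setdb1 fell in that wider range, and Suv39h1 was the 1 of the 5 past 1.5-fold.

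**Figure D3:**
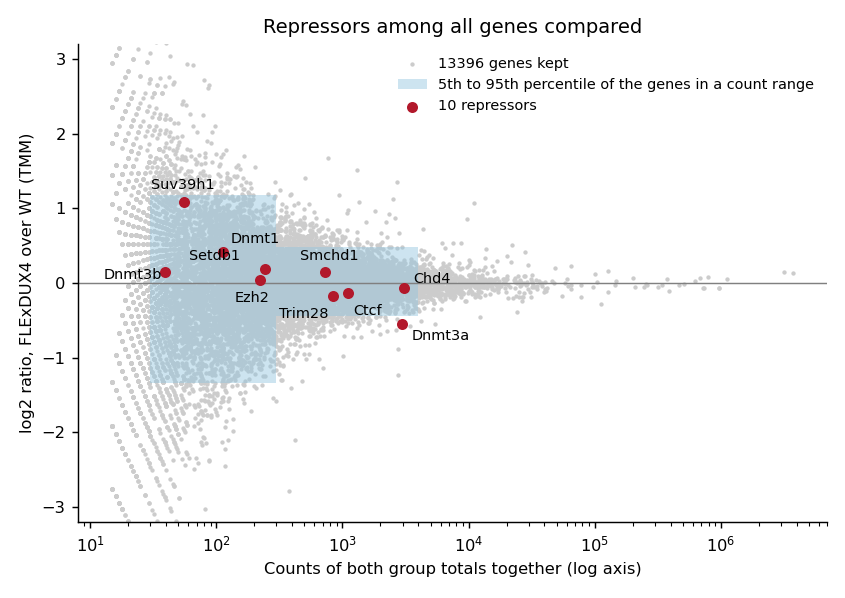
Log2 ratio of FLExDUX4 to WT (TMM) against the counts of both group totals on a log axis, for the 13396 genes compared (grey, 160 of them beyond the vertical axis). Blue boxes span the 5th to 95th percentile of genes with 30 to 299 and with 300 to 3999 counts. Of the 10 repressors in red, Dnmt3a alone lies outside its box.

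Ratios between the repressors do not depend on how the totals are scaled. Of the 45 pairs of the 10 genes, 15 had a FLExDUX4 to WT ratio of ratios whose exact 95% interval excluded 1, with no allowance for the number of pairs. Dnmt3a was in 8 of these pairs, Suv39h1 in 7, and Smchd1 with Trim28 was the 1 pair that held neither. The same share over pairs of all genes was not computed. Of single genes, 37.8% of those with 30 to 299 counts and 42.7% of those with 300 to 3999 had an interval off 0. Relative to Chd4, the gene nearest to it in counts, Dnmt3a was 0.719 times as abundant in FLExDUX4 mice as in WT mice (interval 0.646 to 0.8). Relative to Smchd1 the log2 difference was 0.69 in favour of Smchd1 (interval 0.45 to 0.93). Dnmt3a made up 93.1% of the counts of the 3 DNA methyltransferases in FLExDUX4 mice (interval 91.3 to 94.5) and 96.1% in WT mice (95.2 to 96.9). Dnmt1 made up 5.31% (4.02 to 6.85) and 2.81% (2.15 to 3.61).

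The histone methyltransferases had few counts. EZH2 is the catalytic subunit of the Polycomb repressive complex PRC2, which writes H3K27me3. Ezh2 (chromosome 6, 47530139 to 47595341) gave 92 counts for FLExDUX4 and 128 for WT, 7.09 and 6.90 CPM, and a log2 ratio of 0.04 (interval -0.36 to 0.44). Its paralog Ezh1 was the more abundant of the pair in both groups, with 335 and 410 counts and a ratio of 0.23 (interval 0.01 to 0.44). Ezh2 took 21.6% of the counts of the pair in FLExDUX4 mice (interval 17.7 to 25.8) and 23.8% in WT mice (20.3 to 27.6), and these intervals overlap.

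SUV39H1 and SETDB1 write H3K9me3. Suv39h1 (chromosome X, 8061171 to 8074760) gave 33 counts for FLExDUX4 and 22 for WT, or 2.54 CPM (1.75 to 3.57) and 1.19 CPM (0.743 to 1.80). The log2 ratio was 1.09 (interval 0.28 to 1.95) and 0.82 with spike-in scaling, and 93.8% of the genes with 30 to 299 counts had a lower ratio. Its paralog Suv39h2 went the other way, with 9 and 32 counts and a ratio of -1.26 (interval -2.57 to -0.21). Suv39h1 thus took 78.6% of the counts of the pair in FLExDUX4 mice (interval 63.2 to 89.7) and 40.7% in WT mice (27.6 to 55.0), from 42 and 54 counts in all. Setdb1 (chromosome 3, 95323525 to 95357202) had 108 and 136 counts and a ratio of 0.19 (interval -0.19 to 0.56). Its paralog Setdb2 had 3 counts in FLExDUX4 mice and 41 in WT mice, a ratio of -3.05 (interval -5.59 to -1.61). Setdb1 took 97.3% of that pair in FLExDUX4 mice (92.3 to 99.4) and 76.8% in WT mice (69.9 to 82.8).

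**Figure D4:**
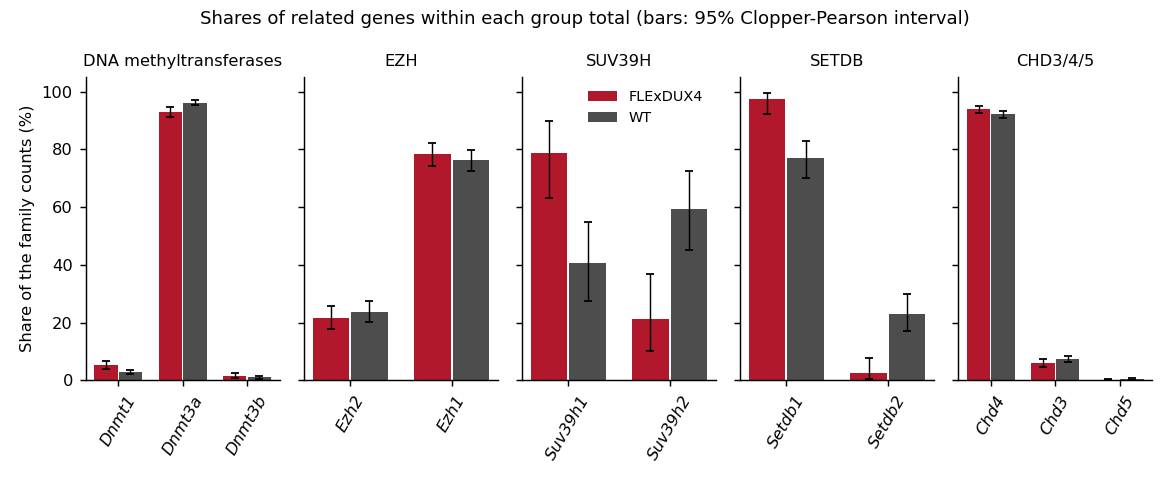
Share of each gene in the counts of its family, in percent, within the FLExDUX4 (red) and WT (grey) group totals. Error bars are 95% Clopper-Pearson intervals that cover counting error only. The shares of Suv39h1, at 78.6% and 40.7%, and Setdb1, at 97.3% and 76.8%, differ most, and rest on 42 to 177 counts a group.

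TRIM28, the corepressor that KRAB zinc finger proteins recruit, brings SETDB1 to its targets. Trim28 (chromosome 7, 12999114 to 13031035) gave 320 counts for FLExDUX4 and 518 for WT. The levels were 24.7 CPM (22.0 to 27.5) and 27.9 CPM (25.6 to 30.4), with overlap, and the log2 ratio was -0.18 (interval -0.38 to 0.03). CHD4 is the ATPase of the NuRD remodeling and deacetylase complex. Chd4 (chromosome 6, 125095981 to 125130591) had 1227 and 1846 counts, 94.6 and 99.5 CPM, and a ratio of -0.07 (interval -0.18 to 0.03), the narrowest interval of the 10. Chd4 held 93.9% of the counts of Chd3, Chd4 and Chd5 in FLExDUX4 mice and 92.1% in WT mice, with overlapping intervals (92.4 to 95.1 and 90.9 to 93.3). CTCF, an insulator protein that binds D4Z4, is encoded by Ctcf (chromosome 8, 105636568 to 105682922). It had 431 and 678 counts, 33.2 and 36.5 CPM, and a ratio of -0.14 (interval -0.32 to 0.04). The germline paralog Ctcfl was near the floor, with 3 and 5 counts. With spike-in scaling the ratios of Trim28, Chd4 and Ctcf were -0.45, -0.35 and -0.41.

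On the TMM scale, genes linked to the same complexes or marks went both ways. The lists also hold genes that act against these marks, such as Tet1, Kdm6b and Kdm4a, and genes of other complexes, such as Sin3a. Of 88 genes in 5 lists of partners, 80 had enough counts, 38 with a ratio above 0 and 42 below, and the median was -0.01. Intervals lay above 0 for 15 of them and below 0 for 15, beside 20.5% and 20.6% of all genes compared. The medians of the lists ran from -0.13 for DNA methylation partners to 0.14 for NuRD and CAF-1. With spike-in scaling all 5 medians were below 0, from -0.41 for DNA methylation partners to -0.14 for NuRD and CAF-1. The counts of ratios and intervals above and below 0 in these lists are on the TMM scale. They depend on the scaling and were not repeated with the spike-ins.

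**Figure D5:**
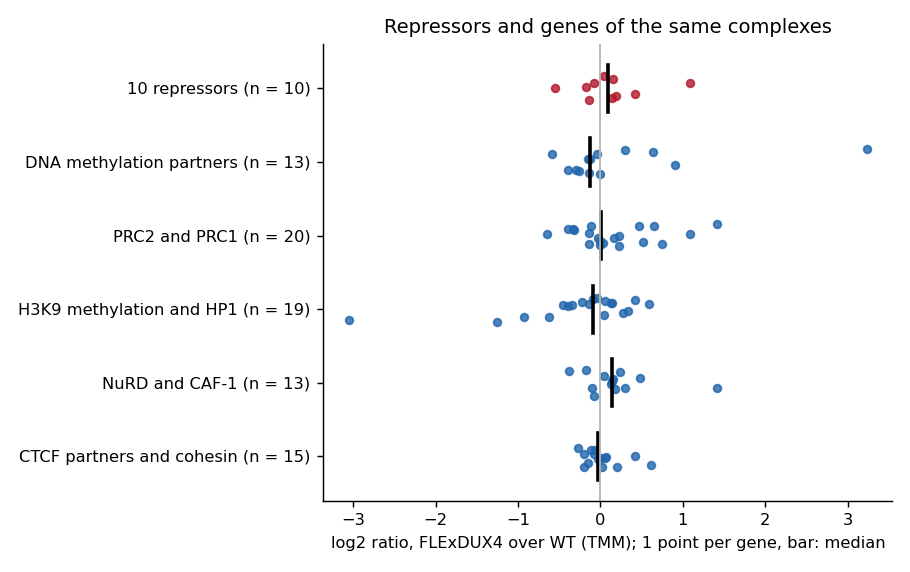
Log2 ratio of FLExDUX4 to WT (TMM) for the 10 repressors (red) and for the lists of partners, which also hold genes that act against the same marks (blue). Each point is a gene with enough counts, black bars are medians, and vertical scatter within a list has no meaning. The medians lie between -0.13 and 0.14, and the point farthest left is Setdb2 at -3.05.

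Of the DNA methylation partners, 13 of 15 were compared, 4 with a ratio above 0 and 9 below, with 3 intervals above 0 and 3 below. Mbd1, which binds methylated CpG, had 120 and 259 counts and a ratio of -0.59 (interval -0.92 to -0.28). Zbtb38 and Zbtb4, zinc finger proteins that bind methylated DNA, had ratios of -0.39 and -0.30, with both intervals below 0. Mbd4, a repair glycosylase (42 and 32 counts), Zbtb33 and Tet1 were the highest with at least 60 counts, at 0.90, 0.64 and 0.30. Uhrf1, which guides DNMT1 to replicated DNA, had 1 and 4 counts, and Dnmt3l, the germline cofactor of DNMT3A, had none in either total. Tdg, singled out after its values were seen, had 29 counts in FLExDUX4 mice and 4 in WT mice.

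Of the PRC2 and PRC1 genes, 20 of 21 were compared, 10 above 0 and 10 below, with 7 intervals above 0 and 2 below. The core PRC2 subunits Eed and Suz12 had ratios of -0.12 (interval -0.32 to 0.08) and -0.03 (interval -0.23 to 0.17). Pcgf6, a PRC1 subunit, was the highest, with 79 and 42 counts and a ratio of 1.42 (interval 0.87 to 2.004), and the H3K27 demethylase gene Kdm6b had a ratio of 0.66. Ring1, Cbx7 and Cbx8 were the lowest with at least 60 counts, at -0.65, -0.39 and -0.33.

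Of the genes of H3K9 methylation and HP1, 19 of 20 were compared, 8 above 0 and 11 below, with 1 interval above 0 and 7 below. Pphln1, a subunit of the HUSH silencing complex, had 99 and 270 counts and a ratio of -0.93 (interval -1.28 to -0.59). The other HUSH subunit genes Mphosph8 and Fam208a had ratios of 0.14 (interval -0.01 to 0.30) and 0.13 (interval -0.13 to 0.39). Cbx3 and Cbx5, which encode the HP1 proteins gamma and alpha that bind H3K9me3, had ratios of -0.63 (interval -0.90 to -0.36) and -0.40 (interval -0.57 to -0.23), while Cbx1, for HP1 beta, was the most abundant of the family with 929 and 1366 counts and a ratio of -0.04 (interval -0.16 to 0.08). Atf7ip, the cofactor that stabilizes SETDB1, had 364 and 711 counts and a ratio of -0.45 (interval -0.64 to -0.27). The H3K9 demethylase gene Kdm4a had the highest ratio, 0.59 (interval 0.39 to 0.79), ahead of Morc2a at 0.42 and Kdm4c at 0.34.

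Of the NuRD and CAF-1 genes, 13 of 16 were compared, 9 above 0 and 4 below, with 2 intervals above 0 and none below. The deacetylase genes of NuRD differed: Hdac1 had 94 and 50 counts and a ratio of 1.42 (interval 0.92 to 1.95), while the more abundant Hdac2 had 503 and 759 and a ratio of -0.08 (interval -0.24 to 0.09). Mta3 and Cdk2ap1 followed at 0.48 and 0.30, and Chd3, Gatad2a and Gatad2b were the lowest at -0.39, -0.18 and -0.10. Chaf1a, the large subunit of the histone chaperone CAF-1, had 10 and 3 counts.

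Of 15 CTCF partners and cohesin genes compared, 7 were above 0 and 8 below, in a range from -0.28 to 0.61, with 2 intervals above 0 and 3 below. Rad21, a cohesin subunit, had 638 and 1107 counts and a ratio of -0.28 (interval -0.42 to -0.14), with Stag1 at -0.21 and Smc1a at -0.20. Pds5a, Hmgb2 and Stag2 were the highest, at 0.61, 0.41 and 0.20. The proteins YY1, HMGB2 and nucleolin were described as a repressor complex on D4Z4. Their genes Yy1, Hmgb2 and Ncl had ratios of -0.03 (interval -0.19 to 0.13), 0.41 (interval -0.15 to 0.97) and 0.001 (interval -0.07 to 0.07).

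Most of the listed genes that such repressors keep silent in somatic cells had no count in either genotype. Of 24 Dux and cleavage-stage symbols listed, 22 were found in the table, and 20 of these had no count in either total, Duxf3 and 6 Zscan4 genes among them. The others were Zfp352, with 4 and 2 counts, and Sp110, which leukocytes also express, with 9 and 29 (1.56 CPM in WT mice, above Dnmt3b and Suv39h1). Of 15 germline genes silenced by DNA methylation, 12 had no count in either total, and Dazl (7 and 2 counts), Sycp3 (4 and 0) and Ddx4 (1 and 0) gave the rest. Only 13396 of all 52550 mouse genes passed the filter on counts, and the share of all genes at 0 in both totals was not computed. Whether the listed genes lack counts more often than other genes was therefore not tested. As a 1-sided 95% limit, a total of 0 allows up to 3 counts, or 0.231 CPM in FLExDUX4 mice and 0.162 CPM in WT mice. How reads that match several genes were counted was not examined, so this limit may not hold for gene families such as Zscan4. SMCHD1 helps to silence genes in the imprinted Snrpn cluster. There Ube3a was abundant, with 2718 and 3756 counts (209.5 and 202.4 CPM) and a ratio of 0.05 (interval -0.02 to 0.12). Snrpn had 343 and 394 counts and a ratio of 0.32 (interval 0.10 to 0.53), and Ndn 46 and 98 counts and a ratio of -0.57 (interval -1.11 to -0.06). Peg12 and Mkrn3 were chosen after their values were seen. Peg12 had 8 and 0 counts, and Mkrn3 had 6 and 13 and a ratio of -0.54 (interval -2.28 to 0.90). At the transgene locus, the ratios of the neighbours Setd5 and Thumpd3 were 0.05 and 0.24, with intervals that held 0, and Gt(ROSA)26Sor had 63 counts in each total, a ratio of 0.52 (interval -0.01 to 1.04), which does not check the genotype, since DUX4 itself was not analysed here.

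Whole muscle holds several cell types, and fewer cells of a type cannot be told apart from less RNA per cell. All 12 muscle fiber markers, led by Acta1, Ttn and Myh4, were abundant, summing to 148800 and 150700 CPM, with ratios from -0.19 to 0.13. Summed levels of marker lists in FLExDUX4 and WT mice were 81.7 and 84.1 CPM for satellite cells and myoblasts, 113.8 and 112.9 for leukocytes, 334.1 and 336.3 for endothelium, 1419 and 1293 for fibroblasts and fibro-adipogenic cells, and 2353 and 2203 for adipocytes. Of the 10 endothelial markers, 4 intervals lay below 0 (Cldn5, Tek, Kdr and Emcn, from -1.34 to -0.44) and 2 above (Esam at 0.73 and Flt1 at 0.20). Of the 9 satellite cell and myoblast markers compared, Pax7 at -0.82 and Notch3 at -0.27 had intervals below 0 and Myog at 1.15 above. Of the 10 fibroblast markers, 3 intervals lay above 0 and 1 below, and of the 11 leukocyte markers compared 2 lay above and 2 below. These counts stand beside 20.5% of intervals above 0 and 20.6% below it over all genes compared. Of the 8 adipocyte markers, 7 had a ratio above 0 on the TMM scale, with 6 intervals above 0, against 20.5% of all genes. Past 1.5-fold were Cfd at 0.88, Adipoq at 0.71 and Retn at 0.69 and, in the other direction, Lep at -0.82 with 12 and 31 counts. With spike-in scaling 4 of the 8 were above 0, and the intervals of Cfd and Adipoq alone lay above 0. Their sum was dominated by Car3, which muscle also expresses, with 1963 and 1897 CPM. Dividing cells, in which Ezh2, Dnmt1 and Suv39h1 are known to be high, were scarce by their markers. Of 16 such markers 11 had any count, and they summed to 20.1 and 21.1 CPM. Those with most counts were Pcna (58 and 132), Mcm2 (85 and 95) and Mcm3 (38 and 47). Of the 8 markers compared, the interval lay above 0 for Rrm2 (19 and 3 counts, ratio 2.99, interval 1.415 to 5.58) and below 0 for Pcna (-0.66) and Tyms (9 and 29 counts, -1.12). Of the defining mitotic markers, Top2a had 11 and 21 counts, Mki67 9 and 6, Cdk1 0 and 9 and Ccna2 0 and 8, while Ccnb1, Ccnb2, Birc5, Bub1 and Aurkb had none in either total. The part of these cell types in the ratios of the 10 repressors was not tested.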

How the data were processed

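Counts per gene were made by the authors from QuantSeq reads trimmed with Cutadapt 1.16 and aligned with STAR 2.5.3a to GRCm38 plus spike-in sequences, and the submitters' processing notes also name featureCounts 1.6.2. The deposited counts used here are raw sums over the mice of each genotype. The table also has 6 columns named by numbers that match no sample label, which were not used, and columns of the authors' own DESeq2 comparison (fold change, error, statistic and p-values), which were not used either. Members and gene lists were chosen with earlier results of these data known, and the count ranges of 30 to 299 and 300 to 3999 after the values were seen.

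Spike-ins (99 features) were set apart. TMM factors were computed on the 13396 genes passing filterByExpr with edgeR 4.0.16 under R 4.3.3, and log2 ratios used a pseudocount of 0.5. Exact intervals at 95% (scipy 1.17.1) came from the share of FLExDUX4 in a gene's counts. The interval code was tested on simulated counts. Where a symbol had several rows, the row with most counts was taken. Partners were named if they are paralogs or known D4Z4 factors, or the 3 highest and 3 lowest of a list with at least 60 counts, and in other lists those with most counts or, near 0, with any. Of these, 1 gene that this rule names is not reported here. Cbx1, Mphosph8, Fam208a and most individual markers of other cell types were named after their values were seen. Coordinates are from GENCODE vM21, where the start equals the deposited one for all 10 genes. Promoters are from RefSeq. Alternatives were other scalings, filters and a pseudocount of 2.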

Additional observations from a re-analysis of the deposited data

How the results depend on the processing

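No paired analysis was possible because the columns per mouse carry no sample label, which left 1 summed total for each genotype, and so no replicate was left out and no count model was fitted. The number of repressors with a ratio above 0 was 6 under TMM, RLE, upper quartile, gene totals, no filter and a filter of at least 10 counts in each total, and 2, Suv39h1 and Dnmt1, with spike-in totals. Intervals below 0 numbered 1 under TMM, 2 with gene totals, where Trim28 joined Dnmt3a, and 4 with spike-in totals, where Chd4 and Ctcf were added. The interval of Suv39h1 stayed above 0 in each of these, but barely with spike-in totals, whose shift of -0.276 takes up nearly all of its lower limit of 0.280. The median of the 10 went from 0.092 to -0.184 with spike-in totals, and no other scaling or filter moved the ratio of a repressor by more than that of gene totals, which lowered each by 0.03. The sign of Dnmt3a and of Suv39h1 did not change in any setting run. Which of TMM and the spike-ins is nearer to the amount of RNA per muscle was not tested. Depth limits Dnmt3b, Suv39h1 and Dnmt1, with 39 to 114 counts over both genotypes.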

Other observations

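Several of the 10 genes share their position with other annotated genes, and the strand setting of the counting is not given in the sources used here. Agrp, which encodes an appetite peptide of the hypothalamus, lies on the strand opposite Ctcf, overlaps it by 826 bases and had 24 counts in FLExDUX4 mice and none in WT mice. Gm4707, on the strand of Smchd1 and overlapping it by 1592 bases, had 6 and 23 counts, and the small RNA gene Gm23751 inside Chd4 had 2 and 16. Zbtb45, opposite Trim28, had 30 and 34 counts, and Cers2, which shares 75 bases with Setdb1 on the opposite strand, had 208 and 311. Dnmt3aos and Dnmt3bos, antisense to Dnmt3a and Dnmt3b, had no count in either total, nor did Gm14820, which covers 13449 bases of Suv39h1. All of these genes were singled out after their values were seen.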
